A study of Homo sapiens with 2 samples.

Results

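ISG15 and its conjugation enzymes are the ubiquitin-like modifier ISG15 and the 5 enzymes that attach it to proteins or take it off again, UBA7, UBE2L6, HERC5, HERC6 and USP18. The members were chosen by gene name, and their 6 names were found among 30482 gene names on the array, through 8 of 41000 probes. Expression was measured in PC3, an established line from a metastasis of human prostate cancer, on 2 dual-colour Agilent whole-genome oligonucleotide arrays. On each array the Cy3 channel held RNA of cells given Non-T siRNA, a non-targeting control. The Cy5 channel held RNA of cells given 1 of a pair of siRNA duplexes against SUB1, a transcriptional coactivator also called PC4. Cells of both arms were transfected a second time 24 h after the first and harvested 72 h after the first. The comparison asks which transcripts change when SUB1 is depleted. Each duplex had 1 array, so no value of a single siRNA has a biological replicate and none was tested. Dyes were not swapped. Bias of a dye for a given probe and the response to depletion cannot be told apart, therefore, and array, siRNA duplex and culture cannot be told apart either. Whether both arrays carried the same Non-T RNA is not given in the sources used here.

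ISG15 is made in response to type I interferon and to viral or cytosolic nucleic acid. It is joined to lysines of target proteins by a cascade that resembles ubiquitination: UBA7 activates it, UBE2L6 carries it, and a HERC-family ligase, mainly HERC5 in human cells, transfers it to newly made proteins. USP18 cleaves ISG15 off its targets and, apart from that activity, damps signalling at the interferon receptor. All these genes are known interferon-stimulated genes, driven by the factor ISGF3, which binds the interferon-stimulated response element.

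The sequences below show where the core of that element lies before the start sites of ISG15, HERC5 and HERC6. ISG15 had the highest ratio among the members, and HERC5 and HERC6 are neighbouring genes on chromosome 4. A higher ratio with siRNA 2 than with siRNA 1 was common to all 6 members, also to UBE2L6, whose windows are not printed. The sequences are the RefSeq promoter windows (GRCh38.p14) from 250 bases before each start up to the start, written 5′ to 3′. Capitals mark the core GAAANNGAAA on either strand, with overlapping matches joined. The windows are chr1:1013247-1013496 on the plus strand for ISG15, chr4:88456869-88457118 on the plus strand for HERC5 and chr4:88378602-88378851 on the plus strand for HERC6.
ISG15: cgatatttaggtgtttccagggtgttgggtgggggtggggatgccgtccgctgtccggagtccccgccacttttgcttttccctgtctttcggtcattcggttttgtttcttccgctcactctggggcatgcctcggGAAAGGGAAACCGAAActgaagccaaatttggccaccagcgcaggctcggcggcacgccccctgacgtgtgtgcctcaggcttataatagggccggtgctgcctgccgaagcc
HERC5: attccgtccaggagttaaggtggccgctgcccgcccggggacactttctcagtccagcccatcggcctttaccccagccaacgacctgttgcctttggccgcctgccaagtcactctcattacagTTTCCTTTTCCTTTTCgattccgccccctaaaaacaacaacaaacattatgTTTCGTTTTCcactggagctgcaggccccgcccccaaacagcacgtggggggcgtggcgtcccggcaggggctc
HERC6: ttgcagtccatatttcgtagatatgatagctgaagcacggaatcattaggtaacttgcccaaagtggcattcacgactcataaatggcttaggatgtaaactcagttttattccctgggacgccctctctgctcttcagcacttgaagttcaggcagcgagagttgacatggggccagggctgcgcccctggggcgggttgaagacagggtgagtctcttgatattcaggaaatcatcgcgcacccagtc

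In the full windows of 300 bases, which run on for 50 bases past the start, ISG15 held 2 overlapping matches, the first beginning 113 bases before the start and the second ending 98 bases before it. HERC5 held 3 matches on the other strand, of which 2 overlapped. The HERC6 window and both UBE2L6 windows held none, and USP18 and UBA7 were not among the windows used. The core was present in 1255 of 35116 windows (3.57%). Counted by gene, where any window of a gene could match, it was present in 1195 of 27305 genes (4.38%) and in 410 of 10512 kept genes with a window (3.9%). Among genes with a window, 2 of 4 members had it, as did 26 of 33 other interferon-stimulated genes (78.8%). A match describes the letters in a window, and its absence says only that these letters are not there.

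SUB1 itself checked the labels. Its log2 ratio was -3.30 with siRNA 1 and -3.26 with siRNA 2, which left 10.2% and 10.4% of the control signal. That was its brightest probe of 4. Those of middle brightness gave -3.35 and -3.16, and -3.75 and -3.50, and the dimmest (A_32_P170444) gave -1.81 and -1.57. After dim probes had been set aside, 19218 genes remained. The 4 epithelial markers KRT8, KRT18, KRT19 and EPCAM were above background with Cy3 intensities of 862 to 53402. KLK3, known to be low in PC3, was dim or not kept on 2 of its probes but bright on a further probe (Cy3 intensity 18634). Of the markers of other cell types, 2 of 3 were kept for leukocytes, 2 of 3 for fibroblasts and 2 of 3 for endothelium, all dim (Cy3 intensities from 111 to 384). PTPRC, COL1A2 and CDH5 were not kept, and of those kept COL1A1 had the largest ratio with siRNA 1 (log2 ratios of 0.66 and 0.45).

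All 8 member probes were kept, all were well above background in 4 of 4 channels, and none was saturated. Each probe had 1 spot on each array. The error given with a ratio is therefore the SD among repeated spots of like brightness on the same array (taken from 209 probes spotted 10 times), which holds spot error within an array and no biological spread. For ISG15, at a mean log2 intensity of 17.04, no repeated spot was as bright, and its SD was borrowed from dimmer spots (mean log2 intensities of 10.8 to 16.0). Intensities are scanned mean spot signals, and ratios are log2 of knockdown over Non-T control after background correction and loess on each array. A gene counted as changed at an absolute fold change of 2, the rule of the study. Probe positions are those in the array files, in the build hg18; the part of the transcript each probe reads was not analysed here.

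The members' ratios differed in size, and with siRNA 1 also in sign. ISG15 was the only member at least 2-fold changed on either array. With siRNA 2 the log2 ratios ran from 0.023 for UBE2L6 to 1.83 for ISG15, with a median of 0.54, while with siRNA 1 they ran from -0.60 for HERC5 to 0.67 for ISG15, with a median of -0.077. The medians of all 19218 genes were 0.023 and 0.024. Above 0 were 6 of 6 members with siRNA 2 (10290 of all 19218 genes) and 3 of 6 with siRNA 1 (10388 of all genes), though the signs of the values nearest 0 turned with the processing: UBE2L6 with siRNA 2 was -0.056 in the scanner software's own processed signals, UBA7 with siRNA 1 was -0.0032 in median spot signals, USP18 with siRNA 1 was -0.068 as the mean of its probes, and HERC6 with siRNA 1 was 0.036 under median centring, which moved the median of all genes to 0.13.

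**Figure D1:**
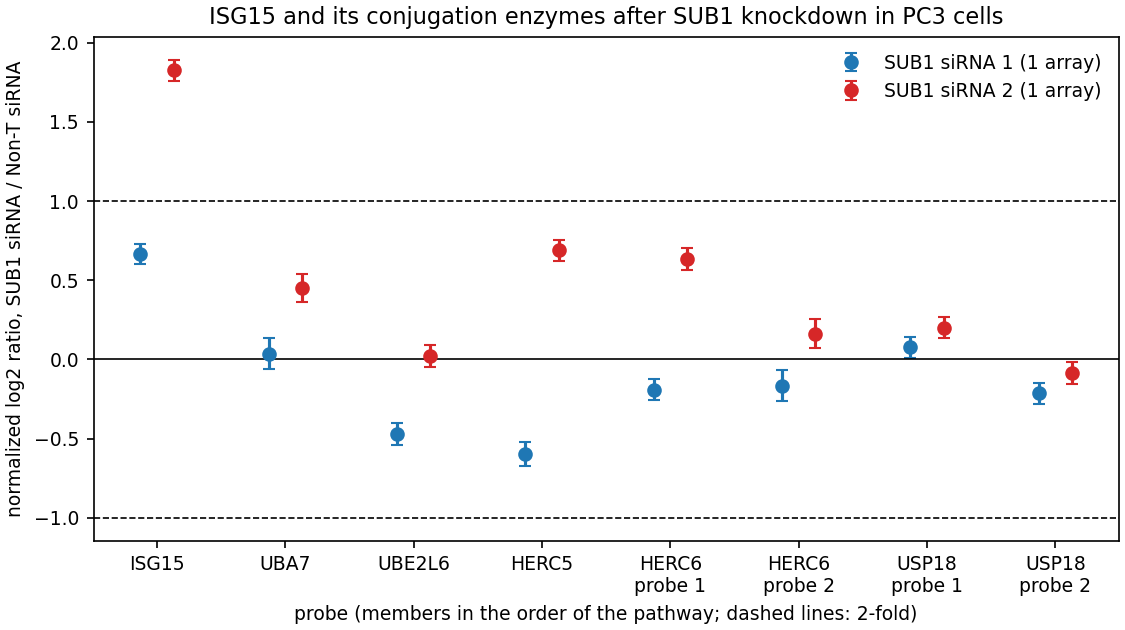
Normalized log2 ratio of knockdown over Non-T control for each member probe, blue for siRNA 1 and red for siRNA 2. Points are 1 spot on 1 array, bars are the SD among repeated spots of like brightness (for ISG15, of dimmer spots), and dashed lines mark 2-fold; ISG15 with siRNA 2 (1.83) is the single point beyond them, and the red point lies above the blue one for every probe.

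Set against all genes, 0 of 6 members were at least 2-fold higher with siRNA 1, where 0.203% of genes were, and 0 of 6 at least 2-fold lower, where 0.609% were. With siRNA 2, 1 of 6 was at least 2-fold higher (0.614% of all genes) and 0 of 6 at least 2-fold lower (1.07%). These counts over all genes depended on the scaling. With siRNA 1, 39 genes were higher and 117 lower, against 137 and 56 under median centring, 778 and 298 in the software's processed signals and 58 and 100 in the authors' ratios. With siRNA 2 they were 118 and 205, against 266 and 101, 994 and 474, and 148 and 162.

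ISG15, the modifier itself, had the brightest spot and the highest ratio of the members on both arrays. Its probe (A_23_P819, NM_005101) lies at chr1:939430-939489 on the plus strand. On the siRNA 1 array its spot read 93393 for the Non-T cells and 224652 for the knockdown. The readings of the siRNA 2 array were 53753 and 294645. Both Cy5 readings lay above both Cy3 readings. The log2 ratio was 0.67 (1.59-fold) with siRNA 1 and 1.83 (3.55-fold) with siRNA 2. The SDs of 0.064 and 0.066 among repeated spots came from dimmer spots, so the spot error at the brightness of ISG15 was not measured. Among the ratios of all 19218 genes these ranked 282nd and 5th from the top. The ranks moved with the processing, to 3361st and 340th in the processed signals of the scanner software, 715th and 9th with a loess span of 0.1, 128th and 4th in the authors' ratios and 48th and 3rd under median centring. The ratio was 2.23-fold higher with siRNA 2 than with siRNA 1, a log2 difference of 1.16 that ranked 76th.

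The size of the ISG15 ratio rested on the bright end of the scale. Its spot was the brightest of 43376 gene spots in Cy5 on both arrays, and the 3rd and 25th brightest in Cy3. In 4 of 4 channels its value had been scaled up by the scanner software from a scan at lower gain, as had those of 354 to 594 gene spots in each channel, and no member other than ISG15 was. Before loess the log2 ratios of ISG15 were 1.27 and 2.46, and the loess curve at its brightness stood at 0.60 and 0.63. The 50 brightest other spots had median log2 ratios before loess of 0.87 (siRNA 1 array, range -0.54 to 1.67) and 0.82 (siRNA 2 array, range 0.055 to 1.62). ISG15 thus lay above all 50 with siRNA 2 and within their range with siRNA 1. Relative to those medians its log2 ratios were 0.39 and 1.63. Across all processing tried the ISG15 log2 ratio lay between 0.39 and 1.20 with siRNA 1 and between 1.52 and 2.40 with siRNA 2. It was above 0 throughout, and at least 2-fold with siRNA 2 throughout, but 2-fold with siRNA 1 under median centring alone (1.20).

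**Figure D2:**
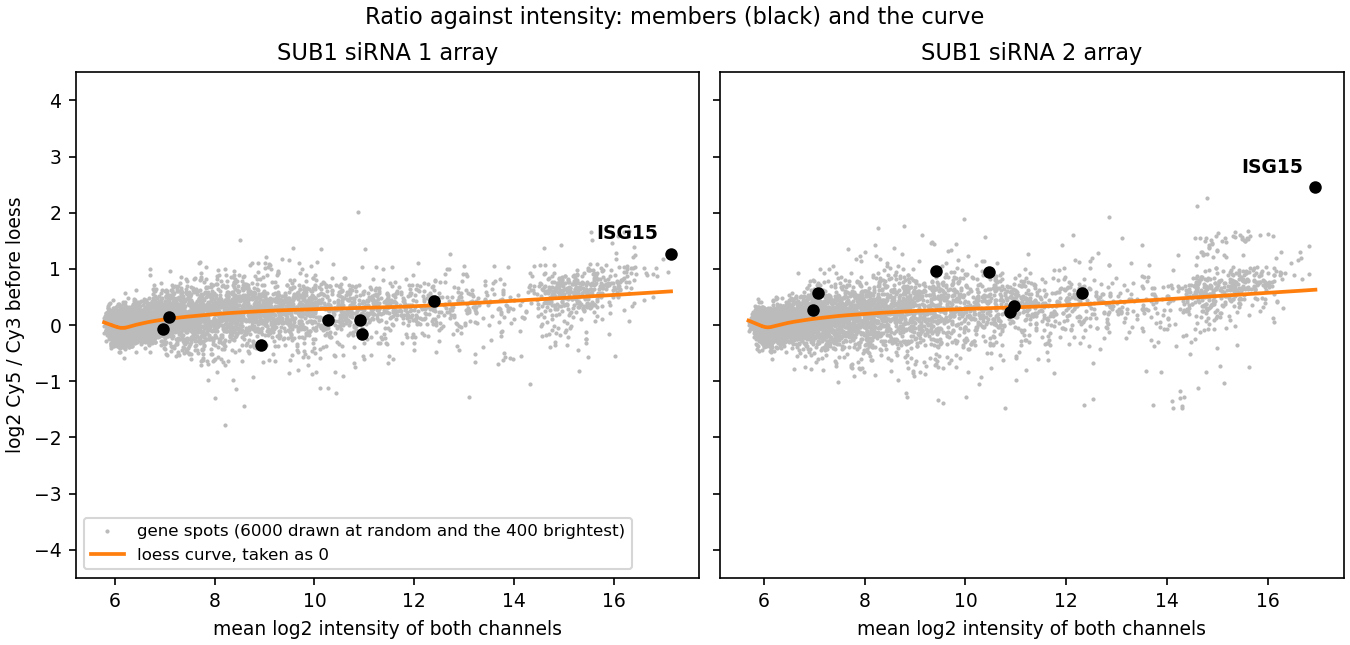
Log2 ratio of Cy5 over Cy3 before loess (vertical) against mean log2 intensity of both channels (horizontal), 1 panel for each array. Grey points are gene spots, the orange line is the loess curve subtracted from them, and black points are the members; ISG15 lies at the right edge, 0.67 above the curve with siRNA 1 and 1.83 above it with siRNA 2.

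The difference between duplexes lay in the knockdown channel for the enzymes, and in both channels for ISG15. Signals of each channel were compared between the arrays after centring on the median of all genes. For ISG15 the knockdown channel (Cy5) was 0.58 higher on the log2 scale on the siRNA 2 array, and the Non-T channel (Cy3) was lower, at -0.61. About equal parts of the difference thus lay in the control and in the knockdown signal. The Cy3 difference of ISG15 was the 10th lowest among 19218 genes, whose central 95% ran from -0.20 to 0.28 (SD 0.124), and it lay below all of 46 other probes of the brightest spots (-0.34 to 0.46). Its Cy5 difference ranked 592nd from the top. In Cy5 the central 95% of all genes was wider, from -0.67 to 0.63 (SD 0.323), and ISG15 lay within it. For the 5 enzymes the Cy3 differences were small, from -0.062 to 0.031, and the Cy5 differences ran from 0.17 for USP18 to 1.33 for HERC5, with a median of 0.44. Of the enzymes, only HERC5 and the brighter HERC6 probe (0.81) lay beyond the central 95% in Cy5. For 39 other interferon-stimulated genes the medians were -0.046 in Cy3 and 0.70 in Cy5. With 1 spot on each array, what lowered the control signal of ISG15 on the siRNA 2 array was not tested.

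**Figure D3:**
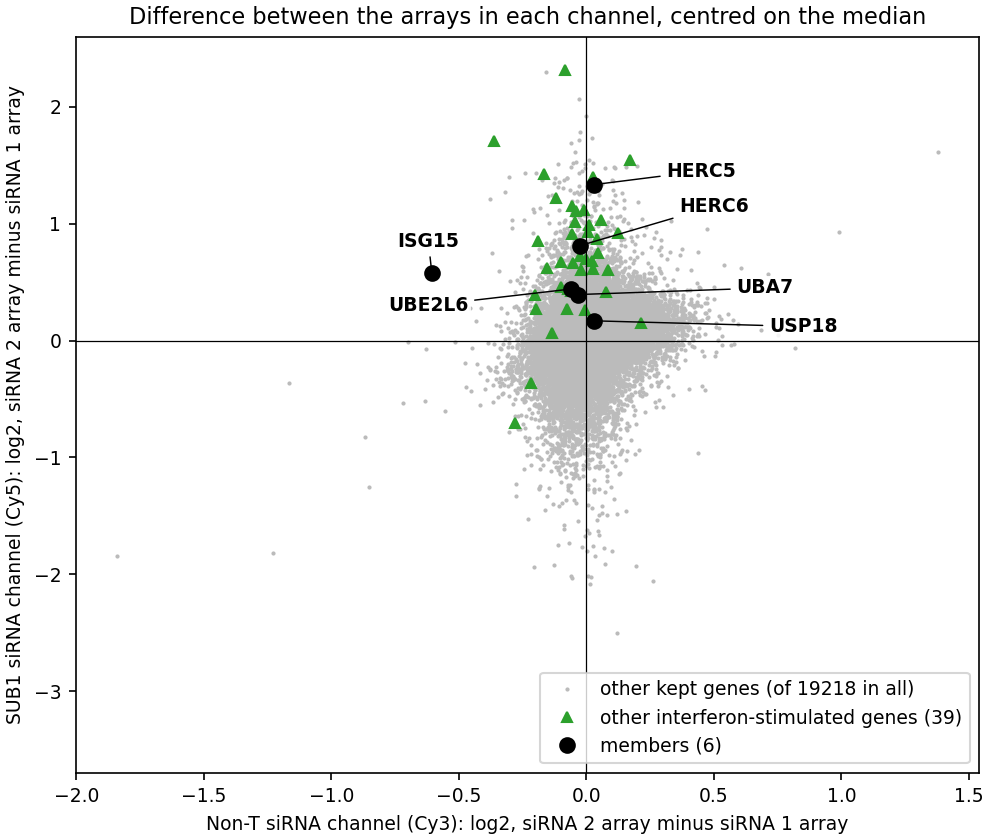
Log2 signal on the siRNA 2 array minus that on the siRNA 1 array, in the Non-T channel (Cy3, horizontal) and in the SUB1 siRNA channel (Cy5, vertical), each centred on the median of all genes. Grey points are kept genes, green triangles other interferon-stimulated genes and black points the members; the 5 enzymes lie near 0 on the horizontal axis, and ISG15 lies at -0.61.

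UBA7, the enzyme that activates ISG15, was named UBE1L in the array files (A_23_P21207, NM_003335, chr3:49820329-49820480, minus strand). Its spot read 149 for the Non-T cells and 143 for the knockdown with siRNA 1, and 129 and 170 with siRNA 2. These were among the dimmest readings of the members, not far above the negative controls (medians of 61.2 to 86.5). The log2 ratio was 0.036 (spot SD 0.098) with siRNA 1 and 0.45 (1.37-fold; spot SD 0.089) with siRNA 2. In the processed signals of the scanner software the siRNA 2 value was 0.97, and without background correction it was 0.42. The cause of the higher value was not tested.

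UBE2L6, the conjugating enzyme that takes ISG15 over from UBA7, was read by A_23_P75741 (NM_198183, chr11:57076473-57076532, minus strand). The siRNA 1 array gave 2129 for the Non-T cells and 1882 for the knockdown, the siRNA 2 array 1785 and 2236. Its log2 ratio was -0.47 (0.722-fold; spot SD 0.068) with siRNA 1 and 0.023 (spot SD 0.069) with siRNA 2. UBE2L6 was thus lower than the control with siRNA 1 and level with it with siRNA 2.

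HERC5, the main ISG15 ligase of human cells, differed most between the duplexes. Its probe (A_23_P110196, NM_016323, chr4:89645912-89645971, plus strand) read 568 (Non-T) and 438 (knockdown) for siRNA 1, and 506 and 952 for siRNA 2. Both control readings were close together, and the knockdown readings fell on either side of them. The log2 ratio was -0.60 (0.662-fold; spot SD 0.076) with siRNA 1 and 0.69 (1.61-fold; spot SD 0.066) with siRNA 2. The ratio was 2.44-fold higher with siRNA 2, a log2 difference of 1.29 that ranked 52nd among all genes.

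HERC6, a close relative of HERC5 and an ISG15 ligase in mice, was read by 2 probes. The brighter (A_23_P250353, NM_017912, chr4:89583060-89583119, plus strand) read 1212 (Non-T) and 1278 (knockdown) for siRNA 1, and 1036 and 1958 for siRNA 2. Its log2 ratio was -0.19 (spot SD 0.068) with siRNA 1 and 0.64 (1.55-fold; spot SD 0.070) with siRNA 2, a difference of 0.83. The dimmer probe (A_23_P250358, chr4:89582690-89582749), with readings of 153 and 127, then 131 and 140, gave -0.17 and 0.16, a difference of 0.33. The probes had the same order of the duplexes, and the dimmer one showed the smaller difference.

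USP18, the protease that removes ISG15, was nearly level with the control with both duplexes. Its brighter probe (A_32_P132206, NM_017414, chr22:17039979-17040038, plus strand) read 4676 (Non-T) and 6271 (knockdown) for siRNA 1, and 4186 and 6179 for siRNA 2. The log2 ratios were 0.077 (spot SD 0.067) and 0.20 (spot SD 0.065), a difference of 0.12. The other probe (A_23_P132159, chr22:17039618-17039677), with readings of 1892 and 1986, then 1760 and 2041, gave -0.21 and -0.087. The probes thus lay on opposite sides of 0, and USP18 had the smallest difference between duplexes of the members. USP18 has a near-identical copy, USP41, and whether these probes separate the copies was not tested.

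**Figure D4:**
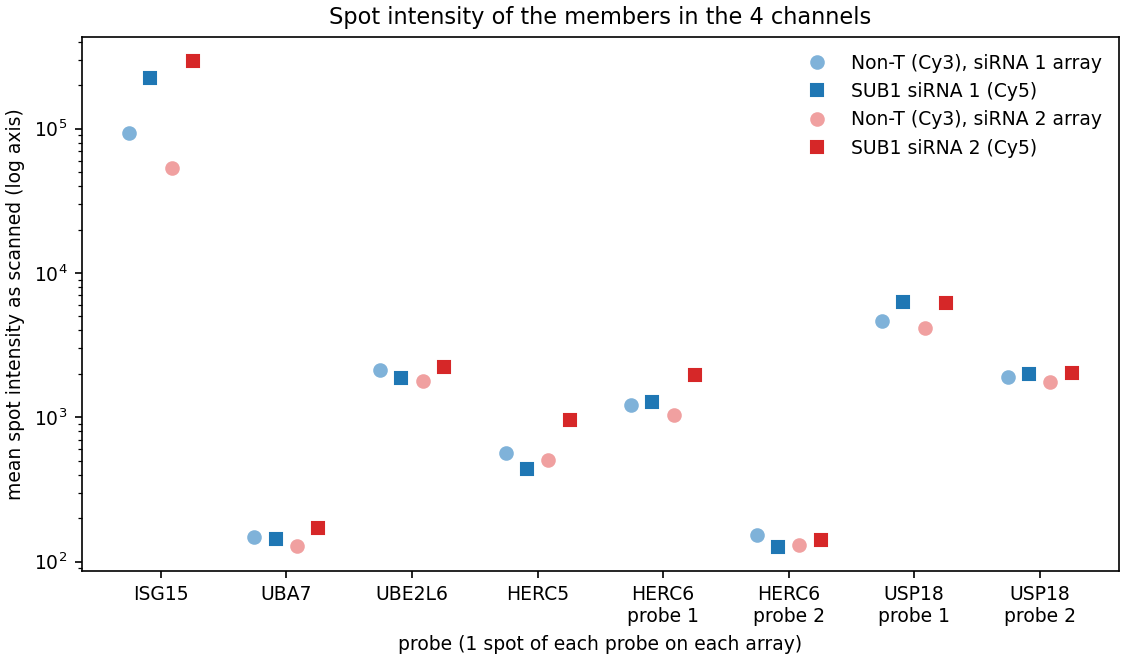
Scanned mean spot intensity on a log axis for each member probe, in the Non-T (circles, Cy3) and SUB1 siRNA (squares, Cy5) channels of both arrays. For HERC5 and HERC6 probe 1 the siRNA 2 square stands apart from the other 3 readings, while for ISG15 the circles also differ, 93393 against 53753; readings of different probes are not comparable as amounts.

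In all, the difference of siRNA 2 minus siRNA 1 was above 0 in 6 of 6 members, from 0.12 to 1.29, with a median of 0.66 beside -0.0021 over all genes. It reached 2-fold for 2 of 6 members, ISG15 and HERC5, where 0.65% of all genes did. The order from the largest was HERC5, ISG15, HERC6, UBE2L6, UBA7 and USP18. UBE2L6 and UBA7 differed from each other by no more than their spot SDs combined. For HERC5 and ISG15 this could not be judged, since the spot error of ISG15 was not measured at its brightness. With 1 array for each duplex this difference was not tested.

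The only test the design allows takes the arrays as 2 independent knockdowns and asks with limma whether the mean ratio departs from 0. It would leave out the spread of the control if both arrays carried the same Non-T RNA. No member passed after Benjamini-Hochberg adjustment, and over all genes 1 did, SUB1 (0.0052%). The mean log2 ratio of ISG15 was 1.25 ± 0.29 (SE, n = 2), with an unadjusted limma p of 0.00999 and an adjusted p of 0.145. ISG15 was the 1 member with an unadjusted p under 0.05, as were 4006 of all genes. The means of the enzymes ran from -0.22 ± 0.15 for UBE2L6 to 0.24 ± 0.14 for UBA7, and the limma adjusted p-values from 0.368 to 0.944. HERC5, whose values lay on both sides of 0, had a mean of 0.048 ± 0.32.

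The genes around the pathway were read by the same measure. Of 7 other enzymes reported to act on ISG15, 6 were kept and none was 2-fold changed. TRIM25, a ubiquitin ligase of RIG-I signalling that also joins ISG15 to targets, had log2 ratios of 0.00060 with siRNA 1 and 0.58 with siRNA 2. ARIH1, an ISG15 ligase for a cytosolic cap-binding protein, had -0.11 and -0.16. The deubiquitinating enzymes that can bind ISG15 were read by their brightest probes as follows: USP13 at -0.24 and -0.48, USP14 at -0.17 and -0.36, USP5 at -0.29 and -0.28, and USP21 at 0.089 and -0.031. A second probe of USP14 had the other sign, at 0.10 and 0.042, as had the dimmer probes of ARIH1 (0.028 and 0.018) and USP21 (-0.055 and 0.048). By the brightest probes, 1 of these 6 enzymes was above 0 with siRNA 2, beside 6 of 6 members and 10290 of all 19218 genes. That contrast depended on the choice of probe. With siRNA 2 the dimmer probes of ARIH1, USP14 and USP21 were above 0, and among the members the dimmer USP18 probe was below it (-0.087).

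The paralogues are close sequence relatives of the members. Of 8, 7 were kept and none was 2-fold changed, with medians of 0.0074 and -0.017. UBE2L3, the relative of UBE2L6 that works with ubiquitin, had -0.12 and -0.079 on its brightest probe and values above 0 on the others (0.060 and 0.089, 0.22 and 0.25). The ubiquitin-activating enzymes were at -0.10 and -0.017 (UBA1) and at 0.080 and 0.28 (UBA6) on their brighter probes. The other UBA1 probe gave -0.25 and -0.20, and the other UBA6 probe 0.20 and 0.062, the reverse order of the duplexes. Among the HERC ligases, HERC1 (0.016 and -0.13) and HERC2 (0.053 and 0.046) were near 0 on their brightest probes, though other HERC2 probes gave 0.0077 and -0.29, and -0.39 and -0.44. HERC4 was at 0.0074 and 0.65, near HERC6 with siRNA 2 (0.64), and its other kept probe gave 0.0043 and 0.42. USP41, the near-identical copy of USP18, had -0.37 and -0.18, and whether its probe separates the copies was not tested. Of 22 genes of other ubiquitin-like systems (ubiquitin, SUMO, NEDD8, UFM1, URM1 and FAT10), 21 were kept and none was 2-fold changed, with medians of 0.041 and 0.0013.

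Upstream of the members, 10 of 11 genes from the interferon receptor to ISGF3 were kept, and none was 2-fold changed. Their medians were -0.078 with siRNA 1 and 0.25 with siRNA 2, and 2 of 10 and 7 of 10 were above 0. STAT2, a subunit of ISGF3, had -0.31 and 0.15. IRF9, the DNA-binding part of ISGF3, had 0.54 and 0.62 on its brighter probe and -0.14 and 0.057 on the other. The transcription factors IRF1 (-0.29 and 0.53) and IRF7 (-0.27 and 0.36) were lower with siRNA 1 and higher with siRNA 2, and IRF3, which needs no induction, was at -0.095 and -0.33. The receptor chain IFNAR1 had -0.15 and 0.11. The kinases JAK1 and TYK2 had -0.061 and -0.064, and -0.042 and -0.14, on their brighter probes. Their other probes had -0.025 and 0.022, and -0.30 and -0.35. The feedback inhibitor SOCS1 had 0.15 and 0.41 on its brighter probe, itself dim (readings of 128 to 157), and -0.064 and 0.087 on the other. Of 9 interferons listed, 8 had a probe on the array and 4 were kept, all dim. IFNB1 had 0.11 and 0.37, IFNE 0.39 and 0.071, IFNL1 -0.059 and 0.015, and IFNL2 0.095 and 0.26.

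Of 40 other interferon-stimulated genes listed, 39 had a probe on the array, and all 39 were kept. A ratio above 0 was found for 36 of 39 with siRNA 2 and for 19 of 39 with siRNA 1. Of all 19218 genes, 10290 and 10388 had a ratio above 0. With siRNA 2, 11 of 39 were at least 2-fold higher (0.614% of all genes), and with siRNA 1 none was (0.203% of all genes). The medians were 0.61 and -0.0099, close to the 0.54 and -0.077 of the members. The 5 largest with siRNA 2 were RSAD2, which encodes the antiviral protein viperin (0.051 with siRNA 1 and 2.42 with siRNA 2), RTP4, a regulator of RNA sensing (0.67 and 2.01), IFIT2, which binds foreign RNA (-0.028 and 1.99), XAF1, a pro-apoptotic gene (0.45 and 1.42), and IFIH1, the RNA sensor MDA5 (0.24 and 1.37). The siRNA 2 ratio of ISG15 lay between those of IFIT2 and XAF1. HERC5 and HERC6 lay just above the median of the list, and UBA7, USP18 and UBE2L6 below it. RTP4 and XAF1 were dim in the control, with Cy3 readings of 290 and 279, and 299 and 270. The leukocyte marker CD68, also dim (Cy3 readings of 384 and 351), had -0.29 and 0.58. What the CD68 values reflect was not tested.

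**Figure D5:**
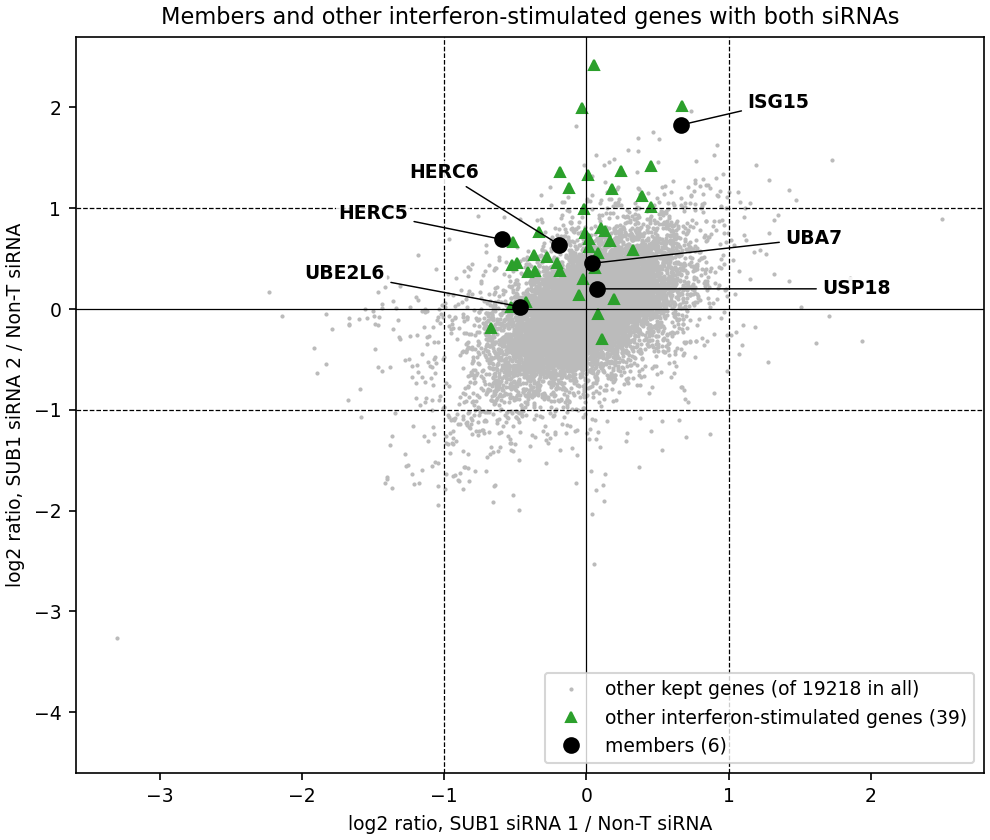
Log2 ratio with siRNA 1 (horizontal) against siRNA 2 (vertical) for 19218 kept genes (grey), 39 other interferon-stimulated genes (green triangles) and the 6 members (black); dashed lines mark 2-fold. ISG15 and RTP4 lie close together at the upper right, and HERC5, HERC6 and UBE2L6 lie left of 0 on the siRNA 1 axis.

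The genes whose pair of ratios lay nearest to that of ISG15 over the 2 arrays were a transcript the array files name only BC010544 (0.74 with siRNA 1 and 1.96 with siRNA 2, distance 0.156), RTP4 (distance 0.187), GDF15, a stress-induced cytokine (0.47 and 1.76, distance 0.210), DDIT4, an inhibitor of mTORC1 signalling (0.51 and 1.68, distance 0.212), and the histone gene H2AC18 (0.91 and 1.62, distance 0.319). A distance over 2 arrays describes likeness of these ratios alone.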

How the data were processed

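The arrays were scanned and quantified by the authors with Agilent Feature Extraction, and the deposited files hold for each spot the signal intensity and local background in both channels. The authors also deposited log2 ratios per probe, made with loess according to the study's methods. Those ratios served as an alternative here: over 41000 spots they correlated with Cy5 over Cy3 recomputed from the scanner files at 0.957 and 0.970, with slopes of 1.01 and 1.02 and column medians of -0.0054 and -0.0068, which settled direction and scale.

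Background was corrected by normexp (offset 50), from mean signals and median local backgrounds, in limma 3.58.1 under R 4.3.3. Control spots were then dropped, ratios were normalized on each array by loess (span 0.3), and outlier-flagged spots were left out (112 and 100). Repeated spots of 1 probe were averaged. The filter on dim probes asked that, on both arrays, a share of 0.5 or more of the spots be well above background in 1 channel or both, and 25673 of 41000 probes passed. The brightest probe stood for a gene. Names came from a RefSeq table of GRCh38.p14 (13129 of 19218 genes; 6089 kept the array's name). The test was lmFit with an intercept, eBayes and Benjamini-Hochberg adjustment over all 19218 genes. Its code was run on simulated arrays with less spread between them than these 2 had (SD of the difference over all genes 0.315). That run checked the code and does not show how the test performs on these data. The number of arrays, 2, limits every value. Promoter windows were searched on both strands.

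The members, the lists of genes and the rule for named genes were chosen with earlier results of these data known. Named were every member probe, SUB1, every kept gene of the lists of ISG15 enzymes, paralogues, receptor to ISGF3 and ligands, the 5 largest changed interferon-stimulated genes, any changed gene of other ubiquitin-like systems, and the 5 genes nearest to ISG15. CD68, KLK3 and the marker genes were named as checks of the cell line. Some genes that this rule names are not reported here. The alternatives were other background corrections, spot signals, normalizations, filters on probes and variance priors.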

Additional observations from a re-analysis of the deposited data

Results flagged for a closer look

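HERC5 and HERC6 were marked for a closer look for a difference between the duplexes, and their ratios lay on opposite sides of the control. For HERC5 the log2 ratio with siRNA 2 minus that with siRNA 1 was 1.29 (0.69 and -0.60), and for HERC6 it was 0.83 (0.64 and -0.19). With 1 array for each siRNA the difference was not tested. The control readings of both genes were close between the arrays, with centred Cy3 differences of 0.029 and -0.026, and the Cy5 differences were 1.33 and 0.81. Under median centring HERC6 with siRNA 1 stood at 0.036, below the median of all genes under that setting (0.13).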

How the results depend on the processing

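Of 307 comparisons of a member's value or count with an alternative, 305 kept their side of the 2-fold line or of the adjusted p of 0.05 and moved by less than 1.5-fold, and none that was called changed sign. Many of them could hardly move. The filters on dim probes and the keeping of outlier spots left every member's log2 ratio unchanged. The variance priors and the scaling of intensities between arrays left every mean unchanged. The tally is therefore no measure of robustness. Beside 12 alternatives, 3 were added after seeing the data (loess without the ISG15 spot, loess span 0.1, and ISG15 relative to the 50 brightest other spots). The remaining 2 comparisons were those under median centring in place of loess, where the ISG15 log2 ratio with siRNA 1 was 1.20 and 1 member in place of 0 was at least 2-fold higher with siRNA 1; that setting leaves in the rise of the ratio with brightness that loess removes. It moved the medians of all genes to 0.13 and 0.12. The processed signals gave ISG15 0.41 and 1.52, the authors' ratios 0.86 and 2.04, loess span 0.1 gave 0.50 and 1.67, and loess without the ISG15 spot 0.67 and 1.83. The limma adjusted p of ISG15 ran from 0.0766 to 0.234 over its alternatives. The difference of siRNA 2 minus siRNA 1 stayed above 0 for all 6 members in every alternative run, from 1.11 to 1.24 for ISG15, 1.18 to 1.46 for HERC5 and 0.58 to 0.89 for HERC6. Over all genes 1 passed an adjusted p of 0.05; 0 did without background correction, with median signals, with processed signals, under median centring and with the authors' ratios, and 114 did with no filter on dim probes, which tests 30482 genes; the cause was not tested. No paired analysis was possible because each siRNA had 1 array, and for the same reason leaving out a replicate was not possible. Brightness over background limits UBA7 and the second HERC6 probe (readings of 127 to 170).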
